A study of Arabidopsis thaliana with 8 samples.

Results

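The genes described here had a lower transcript signal in leaves of the Arabidopsis thaliana mutant abh1 than in Columbia wild-type leaves (Col-0) in every available pair of arrays. They are 78 of the 22746 non-control probe sets, a probe set being the group of short probes on an Affymetrix array that reports 1 transcript. A probe set was taken if its mean signal over the 8 arrays was at least 100 and if log2(signal + 10) in abh1 minus Col-0 was -0.5 or less in each of the 4 pairs of arrays that share treatment and replicate number. Of 14363 probe sets with enough signal, 89 met these conditions, which is 0.62%, and 86, or 0.599%, met the mirror condition of being higher in abh1 by at least 0.5 in all 4 pairs. Of the 89, 11 were set aside by a list of names, which holds COR15B, IAA29, CML38, some other single genes, chloroplast-encoded genes and symbols of the cytochrome P450 and UDP-glycosyltransferase families. Of the 78 probe sets 36 were listed with 1 gene, 0 with several, and 42 are outside the gene list used and are unnamed here.

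Each array received RNA of green tissue from 4-week-old plants, pooled from 3 biological replicates. The 4 groups were abh1 sprayed with 50 µM abscisic acid (ABA) in water, abh1 sprayed with water alone (mock), Col-0 sprayed with ABA and Col-0 mock, all collected after 4 h, with 2 arrays per group numbered 1 and 2. The label of the mock Col-0 leaves also reads no treatment. The labels name the mutant only as abh1 and give no allele, and ABH1 transcript itself is not analysed here, so the mutant state was not checked on the arrays. The signal is the linear MAS5 value deposited by the authors. Arrays of replicate 2 read higher in their median over all non-control probe sets, at 179 to 216, than those of replicate 1, at 131 to 160.4. The leaf mesophyll markers LHCB4.1, RCA and SBPASE, of light harvesting, Rubisco activation and carbon fixation, summed to 43206 to 55011 in abh1 and 42741 to 52959 in Col-0. The root markers PYK10 and EXPA7 summed to 120.4 to 196 in abh1 and 55.1 to 189 in Col-0, and both genes were under the minimum signal of 100. TRY, an inhibitor of trichome fate, read 269 to 421 in abh1 and 205 to 251 in Col-0, which is 0.69 ± 0.21 higher in abh1 (log2, SE) with no overlap. The phloem sugar exporter SWEET11 read 6385 to 9788 in abh1 and 4025 to 7767 in Col-0 (0.47 ± 0.26) and was higher in abh1 in each same-number pair. The guard cell marker FMA was at 0.23 ± 0.21 and the epidermal marker FDH at -0.22 ± 0.35. The part of these cell types in the members' differences was not tested.

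ABH1 is the larger protein of the cap-binding complex in the nucleus, a dimer that holds the modified cap at the start of a new messenger RNA and takes part in its splicing, export and, in plants, in microRNA processing. Plants that lack it are known to respond more strongly than wild type to ABA, the hormone that closes stomata and induces protective genes in drying tissue. ABA acts through soluble receptors, phosphatases and protein kinases on transcription factors that bind promoters of stress genes.

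The members were selected on the abh1 minus Col-0 differences, which are therefore given as a description with no test. Pair by pair, the median difference of the 78 was -1.03 in ABA replicate 1, -0.99 in ABA replicate 2, -1.06 in mock replicate 1 and -1.16 in mock replicate 2. The mean of the 4 pairs had a median of -1.09 over the 78 and ranged from -3.56 to -0.69, against a median of 0.02 over all 14363 probe sets. A mean difference of -1 or less was reached by 52 of the 78 (66.7%, against 0.661% of all probe sets tested). For -2 or less it was 4 (5.13%, against 0.0487%), and 17 were at -1 or below in every pair (21.8%, against 0.167%). These shares follow from the choice. All 4 abh1 arrays lay below all 4 Col-0 arrays in 49 of the 78, a share of 62.8% that follows from the choice, against 1.78% of all probe sets tested. In the other members the arrays of the genotypes overlapped, though not within a pair. In leaf RNA, fewer cells of a type and less transcript per cell cannot be told apart.

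**Figure D1:**
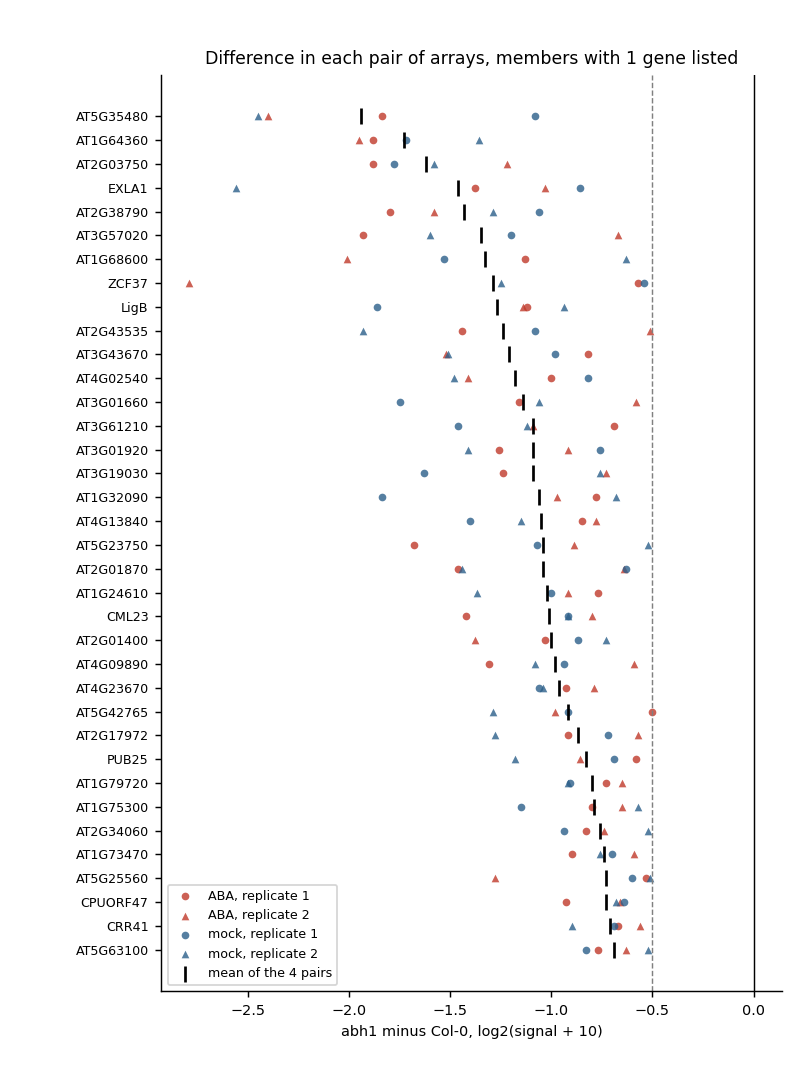
Difference abh1 minus Col-0 in log2(signal + 10), on the x axis, for the 36 members with 1 gene listed, on the y axis. Colour gives the treatment, shape the replicate number, the black bar the mean of the 4 pairs and the dashed line the limit of -0.5. Every point lies left of the dashed line because the genes were chosen so, and the means run from -1.94 for AT5G35480 to -0.69 for AT5G63100.

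At the limit, the weakest pair difference was -0.502 for AT5G42765, -0.509 for AT5G25560 and -0.513 for AT2G43535, which were inside. AT5G50180 at -0.498, AT5G66470 at -0.495 and a probe set unnamed here, 267364_at, at -0.494 were just outside. These values differ by less than the SD of a gene's 4 pair differences, which had a median of 0.33 over the members and 0.33 over all probe sets tested.

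In the mean over both genotypes the members were of ordinary abundance, but not in Col-0 alone. Their median signal was 681 to 909.6 on the Col-0 arrays, against 330.4 to 447 for all probe sets tested. On the abh1 arrays it was 277 to 420.3, against 376 to 453. Their mean signal over the 8 arrays ran from 101 to 6342 with a median of 593, against 417 for all probe sets tested. Of their values, 3 lay under the 10th percentile of the array concerned, all 3 in abh1 ABA and all from unnamed probe sets. That percentile was only 6.83 to 12.7, and no detection calls were used, so values above it can still be near background. Other members were also dim in abh1, such as AT5G35480 at 42.0 to 53.2, where the array medians were 131 to 216. The fold differences of such members are uncertain.

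Among the members, the widest differences came from probe sets unnamed here. The rule set genes aside by name, which could not remove an unnamed probe set. Of all probe sets tested, 24 were at -1 or below in every pair and 17 of these are members, the rest having been set aside. That unnamed probe sets lead is therefore partly set by those exclusions. Probe set 254551_at read 921 and 498 in abh1 ABA and 589.9 and 523 in abh1 mock, against 7934 and 6257 in Col-0 ABA and 7795 and 6619 in Col-0 mock (replicates 1 and 2 in that order, here and below). The mean difference was -3.51 ± 0.28 (SD over 4 pairs), or 11.4-fold lower, and no abh1 array came near a Col-0 array. Probe set 245275_at read 5.62 and 197 in abh1 ABA and 10.6 and 115 in abh1 mock, against 115 and 1413 in Col-0 ABA and 1151 and 767 in Col-0 mock. Its mean difference was -3.56 ± 1.51, so it was less even: in Col-0 the ABA replicate 1 array was as low as an abh1 array, and 5.62 lies under that array's 10th percentile of 7.69. Those 2 were followed by 258322_at at -2.29 ± 0.52 and 249727_at at -2.03 ± 0.50.

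The named members were sorted by the role known for the gene or its family, after the members were known. Of the 36, 6 act at the cell wall, surface or membrane, 4 in signalling or protein turnover, 9 are enzymes or enzyme-family members, 2 are small secreted or ligand-binding proteins, 1 assembles a chloroplast complex, and 14 are given no role here.

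Genes of the wall, surface and membrane had mean differences of -1.46 to -0.76. EXLA1 encodes an expansin-like protein, related to the expansins that loosen cell walls. Its signal was 895 and 660 in abh1 ABA and 284 and 90.9 in abh1 mock, against 2352 and 1363 in Col-0 ABA and 522 and 586 in Col-0 mock. EXLA1 was 2.75-fold lower in abh1 (-1.46 ± 0.77, SD over 4 pairs), and its genotypes overlapped over treatments, since abh1 with ABA read above Col-0 mock. AT1G68600, of the aluminium-activated malate transporter family of anion channels, read 687 and 550.2 in abh1 ABA and 420.5 and 633 in abh1 mock, against 1515 and 2250 in Col-0 ABA and 1237 and 988 in Col-0 mock. That is 2.51-fold lower (-1.33 ± 0.59), with no overlap between genotypes.

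AT5G23750, a remorin, which is a protein of plasma membrane domains, read 363 and 369 in abh1 ABA and 209 and 268 in abh1 mock, against 1187 and 691 in Col-0 ABA and 449 and 389 in Col-0 mock. All 4 abh1 arrays lay below all Col-0 arrays, with a mean of -1.04 ± 0.49. AT4G13840, also called CER26, is an acyltransferase-like protein needed for the longest chains of leaf wax. It read 542 and 705 in abh1 ABA and 696 and 731 in abh1 mock, against 985 and 1216 in Col-0 ABA and 1858 and 1638 in Col-0 mock, at -1.05 ± 0.29 with no overlap. AT1G32090, of the early-responsive-to-dehydration ERD4 family of membrane proteins, was at -1.06 ± 0.53, and AT2G34060, a peroxidase, at -0.76 ± 0.18.

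Among enzymes the range was -1.62 to -0.69, and in 7 of the 9 the genotypes did not overlap. Over all members this held for 49 of 78 (62.8%), a share that follows from the choice, and over all probe sets for 1.78%. With 9 genes the enzymes cannot be told apart from the other members in this. AT2G03750 belongs to the sulfotransferases, which add sulfate to small molecules. It read 459 and 863 in abh1 ABA and 643 and 826 in abh1 mock, against 1720 and 2028 in Col-0 ABA and 2235 and 2491 in Col-0 mock, 3.07-fold lower (-1.62 ± 0.29). The gap was wide on every array, the highest abh1 value being 863 and the lowest Col-0 value 1720. AT3G57020, of the strictosidine synthase-like family, read 1000 and 856 in abh1 ABA and 506 and 291 in abh1 mock, against 3834 and 1371 in Col-0 ABA and 1173 and 904 in Col-0 mock. This gene was 2.55-fold lower (-1.35 ± 0.54), and as with EXLA1 the abh1 ABA arrays overlapped those of Col-0 mock.

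LigB, a ring-cleaving dioxygenase that makes the pyrone compounds called arabidopyrones, read 313 and 204 in abh1 ABA and 191 and 258 in abh1 mock, against 690 and 462 in Col-0 ABA and 722 and 505 in Col-0 mock. It was 2.41-fold lower (-1.27 ± 0.41) without overlap. AT3G43670, of the copper amine oxidases, which break down polyamines, read 151 and 154 in abh1 ABA and 210.1 and 166 in abh1 mock, against 274 and 459.5 in Col-0 ABA and 424 and 494 in Col-0 mock. The difference was -1.21 ± 0.36.

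Of the 9 enzymes 3 are of the superfamily of methyltransferases that use S-adenosylmethionine. AT3G01660 read 446 and 315 in abh1 ABA and 395 and 316 in abh1 mock, against 1009 and 476 in Col-0 ABA and 1350 and 671 in Col-0 mock (-1.14 ± 0.48). AT3G61210 read 648 and 437 in abh1 ABA and 529 and 649.5 in abh1 mock, against 1049 and 944 in Col-0 ABA and 1471 and 1424 in Col-0 mock (-1.09 ± 0.32). AT5G63100 had the smallest mean difference of all members, at -0.69 ± 0.14, with signals of 115 to 152 in abh1 and 201 to 244 in Col-0. In all 3 the abh1 arrays stayed below the Col-0 arrays; such genes were not counted over the whole array. AT1G24610, which resembles the enzyme that methylates Rubisco, was at -1.02 ± 0.25. AT1G75300, of the isoflavone reductase-like family, read 124 and 224 in abh1 ABA and 62.1 and 113 in abh1 mock, against 222 and 356 in Col-0 ABA and 149.7 and 172 in Col-0 mock, 1.73-fold lower.

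In signalling and protein turnover, differences ran from -1.01 to -0.73. CML23, a calmodulin-like calcium sensor, was at -1.01 ± 0.27 and among the dimmer members, with signals of 31.5 to 99.1 in abh1 and 68.8 to 281 in Col-0. PUB25, a U-box ubiquitin ligase known from cold signalling, read 327 and 195 in abh1 ABA and 180.4 and 139 in abh1 mock, against 496 and 361 in Col-0 ABA and 297 and 326 in Col-0 mock. Its arrays overlapped between genotypes only through abh1 ABA replicate 1. AT5G25560, a zinc finger protein, read 498 and 534 in abh1 ABA and 493 and 843 in abh1 mock, against 724 and 1310 in Col-0 ABA and 754 and 1204 in Col-0 mock. Its pair differences clustered near the limit except in ABA replicate 2, where it was -1.28. AT1G79720, an aspartyl protease, was at -0.80 ± 0.13.

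AT2G43535, of the defensin-like trypsin inhibitors, read 342 and 537 in abh1 ABA and 332 and 223 in abh1 mock, against 943 and 770.1 in Col-0 ABA and 715 and 879 in Col-0 mock (-1.24 ± 0.60). AT4G23670, of the major latex protein family that binds small ligands, was the brightest named member, with 2846 to 5857 in abh1 and 5926 to 10162 in Col-0. Its 4 pair differences were close to each other, at -0.96 ± 0.12. CRR41, needed to assemble the chloroplast NADH dehydrogenase-like complex, read 441 and 431 in abh1 ABA and 502 and 417 in abh1 mock, against 709 and 642 in Col-0 ABA and 818 and 788 in Col-0 mock. Both these genes kept the genotypes apart on all arrays, though CRR41 was only 1.63-fold lower.

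Among the 14 with no role given, AT5G35480 had the largest difference of any named member. It read 52.0 and 42.0 in abh1 ABA and 53.2 and 50.2 in abh1 mock, against 211 and 265 in Col-0 ABA and 124 and 318 in Col-0 mock, 3.84-fold lower (-1.94 ± 0.64). AT1G64360 read 647 and 294 in abh1 ABA and 737 and 269 in abh1 mock, against 2404 and 1161 in Col-0 ABA and 2451 and 707 in Col-0 mock. It was 3.31-fold lower (-1.73 ± 0.26) with even pairs, replicate 2 was lower than replicate 1 in each group, and 1 abh1 array, at 737, lay above the lowest Col-0 array, at 707. AT2G38790 read 279.8 and 305 in abh1 ABA and 324 and 193 in abh1 mock, against 997 and 930.2 in Col-0 ABA and 685 and 487 in Col-0 mock (-1.43 ± 0.32).

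ZCF37 was the least even named member, at -1.29 ± 1.05. It read 222 and 75.3 in abh1 ABA and 296 and 83.4 in abh1 mock, against 334 and 579.8 in Col-0 ABA and 437 and 213 in Col-0 mock, and its difference was -2.79 in ABA replicate 2 against -0.57 in ABA replicate 1. AT4G02540 read 145 and 173 in abh1 ABA and 146 and 167 in abh1 mock, against 299.6 and 477 in Col-0 ABA and 264 and 483 in Col-0 mock (-1.18 ± 0.32). AT3G01920 read 887 and 775 in abh1 ABA and 1026 and 545 in abh1 mock, against 2139 and 1478 in Col-0 ABA and 1741 and 1461 in Col-0 mock (-1.09 ± 0.30). The genotypes did not overlap in these last 2.

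CPUORF47 is named for a conserved short peptide encoded upstream of its main reading frame. It read 224 and 302 in abh1 ABA and 122 and 188 in abh1 mock, against 438 and 484 in Col-0 ABA and 196 and 307 in Col-0 mock, at -0.73 ± 0.14. AT3G19030 read 2155 and 1829 in abh1 ABA and 1098 and 1149 in abh1 mock, against 5089 and 3030 in Col-0 ABA and 3413 and 1948 in Col-0 mock. AT4G09890 read 469.8 and 367 in abh1 ABA and 313 and 205 in abh1 mock, against 1183 and 559 in Col-0 ABA and 611 and 443 in Col-0 mock. AT5G42765 read 717 and 508 in abh1 ABA and 663 and 585 in abh1 mock, against 1019 and 1008 in Col-0 ABA and 1264 and 1447 in Col-0 mock. Of these 4, only AT5G42765 had every abh1 array below every Col-0 array. Of the genes with no role given, AT2G01870, AT2G01400, AT2G17972 and AT1G73470 had mean differences between -1.04 and -0.74, and in each of them the genotypes did not overlap.

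**Figure D2:**
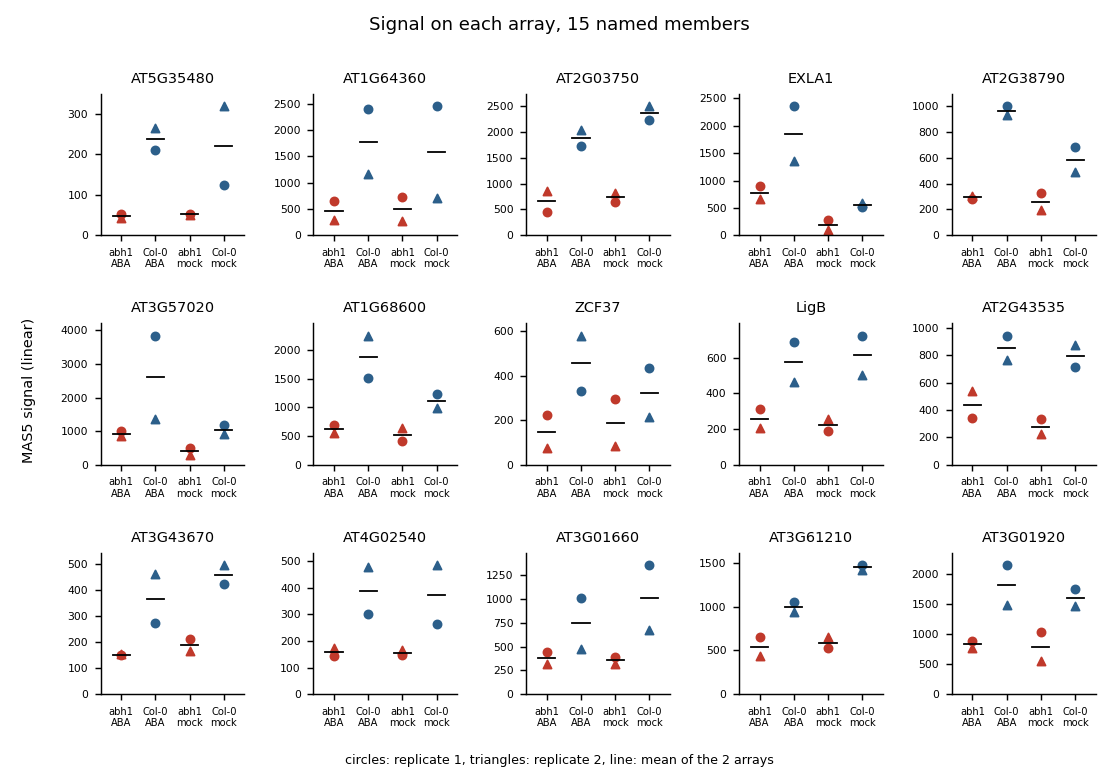
MAS5 signal on a linear y axis from 0 for the 15 named members with the most negative mean difference, by group on the x axis. Circles are replicate 1, triangles replicate 2, red abh1, blue Col-0, and lines the means of 2 arrays; within each treatment the red points lie under the blue points of the same shape, and EXLA1 and AT3G57020 also differ between ABA and mock.

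ABA and mock were compared next, which asks how genes that are low in abh1 respond to the hormone and which the choice of members did not use. No member passed the test for ABA in the fit of 4 group means alone. With the replicate number added to the fit most still did not pass. Those that did mostly rose, led by EXLA1, AT3G57020 and 5 unnamed probe sets. With the ABA effect averaged over genotypes, the median change was 0.04 over the 78 members and -0.08 over all probe sets tested, on the log2(signal + 10) scale. Limma, fitted to all 8 arrays with 4 group means and adjusted by Benjamini-Hochberg over 14363 probe sets, called 0 of the 78, where 0.188% of all were called. An unadjusted p under 0.05 was reached by 13 members that were higher (16.7%, against 4.45% of all) and 2 that were lower (2.56%, against 3.87% of all). Same-numbered arrays deviated together from their group means, so each fit was repeated with the replicate number as a term, called the replicate block. With the block limma called 8 members, 10.3% of them against 2.23% of all probe sets. Of these 7 rose, 8.97% of the members against 1.74% of all, and 1 fell, 1.28% against 0.487%.

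EXLA1 rose 1.93 ± 0.26 (log2, SE with the block; adjusted p = 0.0128 by limma with the block and 0.111 without), being higher with ABA in 4 of 4 pairs. AT3G57020 rose 2.29-fold, with an SE of 0.22 on the log2 scale, also in 4 of 4 pairs (adjusted p = 0.0372 by limma with the block and 0.36 without). Of the 5 unnamed probe sets that rose, 247866_at was at 2.93 ± 0.52 (adjusted p = 0.0349 by limma with the block). It read 540 and 126 in abh1 ABA and 1509 and 565 in Col-0 ABA, against 14.8 and 61.2 in abh1 mock and 89.0 and 101 in Col-0 mock. It passed the signal minimum only through the ABA arrays, with a mean of 685 there and 66.4 in the mock arrays, so its rise is partly set by the filter. The others were 256300_at at 1.71, 254074_at at 1.27, 254066_at at 1.25 and 248461_s_at at 0.86. Probe set 250832_at was the 1 that fell, by 0.81 on the log2 scale (adjusted p = 0.0397 by limma with the block).

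Without Col-0 ABA replicate 2, and without the block, 5 members were called, all higher with ABA: EXLA1 at 2.12, AT3G57020 at 1.57, AT5G23750 at 1.05, 247866_at at 3.28 and 254074_at at 1.27. Leaving out any other single array gave 0 called members. The count over all probe sets without Col-0 ABA replicate 2 was 884, or 6.15% of those tested. Of the 2 measured markers of senescing leaves, SAG29, a sugar transporter gene, also rose with ABA (4.32 ± 0.57, SE; adjusted p = 0.0475 by limma without the block), and WRKY6 was at 0.11 ± 0.28. Their part in the members' ABA changes was not tested.

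**Figure D3:**
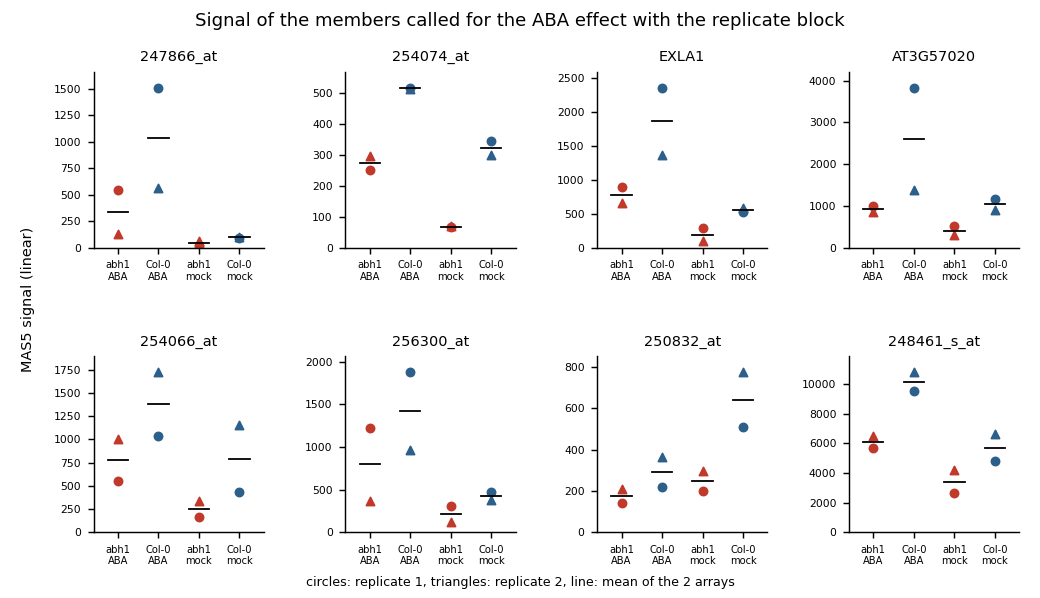
MAS5 signal on a linear y axis from 0 for the 8 members called for the averaged ABA effect with the replicate block, by group on the x axis; circles are replicate 1, triangles replicate 2, red abh1, blue Col-0, and lines the means of 2 arrays. In 7 panels the ABA points lie above the mock points of the same genotype and shape, and in 250832_at below.

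Counted by direction, 21 of the 78 were higher with ABA in all 4 same-genotype, same-number pairs, 26.9% against 12.3% of all probe sets, and 13 were lower in all 4, 16.7% against 17.8%. A rise of at least 0.5 in all 4 pairs was seen in 12 members, 15.4% against 1.8% of all, and a drop of that size in 0, against 0.703%. The 12 include 6 named genes, which are EXLA1, AT3G57020, AT3G19030, CML23, AT1G75300 and CPUORF47. Apart from EXLA1 and AT3G57020, these did not pass with the block, at adjusted p = 0.0915 for AT3G19030, 0.124 for CML23, 0.0766 for AT1G75300 and 0.051 for CPUORF47 by limma. Their averaged ABA changes were 0.71, 0.82, 0.84 and 0.81. CML23 and 247866_at reached the signal minimum only through the ABA arrays, and 252534_at only through the mock arrays. Over the 75 members with a mean of at least 100 under both treatments, a recount chosen after seeing the data, 6 rose with the block (8%, against 1.6% of all such probe sets). On that footing 10 were raised by at least 0.5 in all 4 pairs (13.3%, against 1.59%).

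By role, 3 of the 4 signalling and turnover genes were higher with ABA in 4 of 4 pairs, CML23, PUB25 at 0.54 ± 0.18 and AT1G79720 at 0.41 ± 0.16 (SE with the block). So were 2 of 6 wall, surface and membrane genes, 2 of 9 enzymes, AT4G23670 among the 2 small or ligand-binding proteins, and 3 of 14 with no role given. Over all members the share was 26.9% and over all probe sets 12.3%. The roles were sorted after the members were known, the groups are small, and 0 of the 4 signalling and turnover genes passed the test with the block. AT5G23750 was at 0.85 ± 0.20 (adjusted p = 0.08 by limma with the block) and AT4G09890 at 0.66 ± 0.17. Only AT4G13840, at -0.44 ± 0.15, and AT3G43670, at -0.32 ± 0.20, were lower in 4 of 4 pairs among the named. Of the other named genes with lower averages under ABA, AT3G61210 was at -0.34 ± 0.17, AT2G03750 at -0.27 ± 0.16, AT5G42765 at -0.23 ± 0.16 and AT3G01660 at -0.18 ± 0.18. CRR41 was at -0.16 ± 0.14 and AT5G25560 at -0.14 ± 0.17, and none of these 6 passed the test, with adjusted p of 0.296 to 0.649 by limma with the block.

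**Figure D4:**
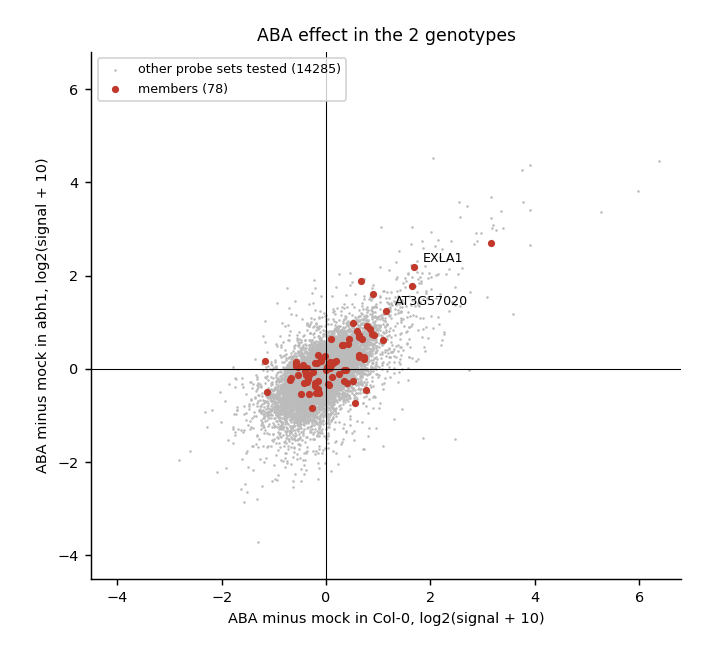
ABA minus mock in abh1 (y axis) against ABA minus mock in Col-0 (x axis), both in log2(signal + 10), for the 78 members in red and the other probe sets tested in grey. Most members lie within the grey cloud around 0, and a few, EXLA1 and AT3G57020 among them, lie towards the upper right.

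In each genotype alone, limma called 0 probe sets of any kind without the block, and 588 in abh1 and 588 in Col-0, 4.09% in each case, had an unadjusted p under 0.05. In abh1, 9 members had an unadjusted p under 0.05, all higher with ABA (11.5%, against 2.72% of all), and in Col-0 8 were higher (10.3%, against 2.49%) and 2 lower (2.56%, against 1.61%). With the block, 1 member was called in abh1 (1.28%, against 0.118% of all), which was 254074_at at 1.88 ± 0.23, and 0 in Col-0, where 0.00696% of all were called. In that fit an unadjusted p under 0.05 was reached by 17 members in abh1 (15 higher, 2 lower), 21.8% against 12.1% of all, and by 22 in Col-0 (16 higher, 6 lower), 28.2% against 11.5%. The median ABA change of the members was 0.09 in abh1 and 0.08 in Col-0, against -0.05 and -0.09 over all probe sets.

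For the 12 genes raised by at least 0.5 in every pair, the level in ABA-sprayed abh1 was set beside that in mock-sprayed Col-0, as a description. The difference abh1 ABA minus Col-0 mock had a median of 0.06 and ran from -0.38 for AT3G19030 to 1.38 for 247866_at, with 7 of the 12 above 0. EXLA1 was at 0.47 and AT3G57020 at -0.15. In the other 66 members it had a median of -1.16, with 0 above 0, each being on average lower in abh1 with ABA than in Col-0 mock. This value is the sum of the ABA change and the genotype difference, so the gap between the 12 and the 66 is largely fixed by how both were chosen.

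The size of the abh1 deficit varied between treatments in both directions. The difference in ABA minus the difference in mock had a median of 0.06 over the members, with quartiles at -0.29 and 0.31, and 36 of the 78 had the larger deficit in ABA (46.2%, against 46% of all probe sets). Among named genes it was 0.50 for EXLA1, -0.78 for ZCF37, -0.51 for AT2G38790 and 0.53 for AT2G43535. These are differences of the values that chose the genes and were not tested.

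Few genes of known pathways could be set beside the members. Of the 14 pathway lists, EXLA1 is the 1 member found, in the list of cell wall loosening and remodelling genes. That list has 34 entries, 13 measured and 7 with enough signal. With the block 2 of the 7 rose with ABA, EXLA1 and the expansin EXPA16 (2.35 ± 0.28, SE without the block; adjusted p = 0.00756 by limma with the block), and 1 fell, the expansin EXPA8 (-2.39 ± 0.36; 0.00766). The abh1 minus Col-0 differences of EXPA16 and EXPA8 were -0.26 ± 0.28 and -0.22 ± 0.36 (SE). The median abh1 minus Col-0 difference of the 7 was -0.22, against 0.02 over all probe sets. EXLA2 and EXLA3, the nearest relatives of EXLA1, had mean signals of 88 and 11.5, under the minimum. EXLA2 read 183 and 133 in abh1 ABA and 49.4 and 21.1 in abh1 mock. In Col-0 it read 203 and 59.9 with ABA and 45.9 and 9.7 in mock, so it was lower in abh1 only in ABA replicate 1.

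In the list of ABA and cold response effectors 4 of 5 genes with enough signal rose with ABA with the block, COR15A, COR47, LTI30 and LEA4-5, and 0 are members. COR15B, the other gene of the 5, met the pair rule at -1.25 and is absent only because it was set aside by name, as were CML38 in the list of touch and wound genes and IAA29 in the auxin list, so the number of list genes among the members is set by those exclusions. Of the 5, 4 were lower in abh1, with a median of -0.26, against 0.02 over all probe sets. The 4 were COR15B, COR15A at -0.58 ± 0.29, COR47 at -0.26 ± 0.16 and LEA4-5 at -0.03 ± 0.69 (SE). The SE of LEA4-5 is far larger than its difference, and LTI30 was at 0.02 ± 0.29. The list of cap-binding partners in RNA processing holds 2 measured genes, SE and DDL, at 0.01 ± 0.38 and -0.13 ± 0.29 in abh1 minus Col-0 (SE). Light harvesting genes, 3 measured, had a median of 0.04.

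The positions of the members were looked up in the RefSeq gene table. All 36 named members lie on nuclear chromosomes, 10 on chromosome 1, 7 on chromosome 2, 8 on chromosome 3, 5 on chromosome 4 and 6 on chromosome 5, shares of 27.8%, 19.4%, 22.2%, 13.9% and 16.7%. The 7691 named nuclear genes with enough signal had shares of 26.2%, 14.7%, 20.5%, 14.7% and 24%. No other member was found among the measured genes directly beside the 36, and the 42 unnamed members were not placed. The genes set aside by name are not among the 36. The shares therefore cover the 36 alone, and whether genes lower in abh1 lie side by side is not shown here. Of the genes directly beside a member on either side, 30 were measured, next to 22 members, with a median difference of 0.01. Of the 30, 14 were lower in abh1, not counting AT3G01930, which at -0.00 was lower by less than the rounding. AT1G51090, beside CRR41, was the lowest of them at -0.74, and the only neighbour at -0.5 or below on average.

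The gene spans were compared without a test. The span from start to end of the gene, introns included, had a median of 1482 bases over the 36, from 497 to 4174, against 2295 bases over the 7691 genes. The median number of RefSeq transcripts per gene was 1 in both. Each named member was represented by 1 probe set, and 3 of the 78 probe sets carry a name ending that marks possible cross-hybridisation, 3.85% against 3.5% of all.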

How the data were processed

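The authors deposited 1 MAS5 signal intensity per probe set and array on a linear scale; per the labels and the series text, Affymetrix software made it, with parameters that no source used here states. Every array had a 2% trimmed mean of 500.04 to 500.05, and the values were not scaled again. Of 22810 probe sets 64 are controls; 13513 are listed with 1 gene, 503 with several and 8794 are not listed in the platform annotation, whose symbols were updated through RefSeq (TAIR10.1).

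Here, 10 was added, log2 taken, and probe sets with a mean signal of at least 100 kept. Limma 3.58.1 (R 4.3.3) fitted 4 group means to all 8 arrays with 4 residual degrees of freedom (3 with the replicate block), eBayes with trend, two-sided, Benjamini-Hochberg threshold 0.05. The fits were tested on simulated data. The labels give the replicate numbers; deviations of same-numbered arrays correlated at 0.387 to 0.7 in the 6 pairs of groups, above the level of 0.1 set for a pairing. An exact test of 2 arrays against 2 cannot go below 0.33. With pools on each array, p-values cover array-to-array spread alone, and precision is limited by having 2 arrays a group. Members and lists were chosen with earlier results of these data known. Of 353 list entries 52 were matched; 1 pointed to another gene and was left out.

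Genes with values on every array were the 15 named members with the most negative difference, those in a list, up to 8 in each direction by p for ABA, and 2 unnamed probe sets; further unnamed probe sets were added after their values were seen. The settings varied were the replicate block, scaling, offset, filter, single arrays, and the limits of the rule. Sequences were not used here.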

Additional observations from a re-analysis of the deposited data

Results flagged for a closer look

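In 5 of the 78 members ABA moved abh1 one way in both pairs and Col-0 the other way in both pairs. The difference between the genotypes' ABA effects was not tested. Such patterns were seen in 3.74% of all probe sets for a rise in abh1 and 1.93% for a drop, against 5.13% and 1.28% of the members.

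AT1G24610 changed by 0.09 and 0.14 in abh1 and by -0.14 and -0.31 in Col-0, a difference of 0.34. Probe set 245891_at changed by 0.30 and 0.00 in abh1 and by -0.60 and -0.57 in Col-0, a difference of 0.73. For 262897_at the values were 0.01 and 0.12 in abh1 and -0.62 and -0.55 in Col-0, a difference of 0.65. For 260957_at they were 0.07 and 0.00 in abh1 and -0.60 and -0.47 in Col-0, a difference of 0.57. In 258322_at the order was turned, with -0.37 and -0.24 in abh1 and 0.06 and 0.74 in Col-0, a difference of -0.71. Values printed as 0.00 are above 0 by less than the rounding.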

How the results depend on the processing

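All 78 members stayed lower in abh1 in 4 of 4 pairs after median centring and after quantile normalization. This largely follows from the limit used to choose them, so it is no independent check. The limit itself was no longer met by 11 members after median centring and by 8 after quantile normalization. The weakest pair difference of any member was then -0.36 and -0.39, in that order. The median difference of the 78 stayed between -1.16 and -1.06 over the alternatives run. Membership depended on the limits. A limit of -1 left 17, -0.3 gave 225, and 247 had all abh1 arrays below all Col-0 arrays with no pairs, 49 of them members. With 1 pair left out the count was 109 to 192, the most without ABA replicate 2 (192) and ABA replicate 1 (170). Median centring gave 86, of which 67 were among the 78, and quantile normalization 91, of which 70 were.

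For the averaged ABA effect, the replicate block raised the called members to 8 and all called probe sets to 320, against 0 and 27 without it. All called were 5 after median centring, 50 after quantile normalization, 15 with the filter at the 40th percentile and 1 with no filter, with 0 members called in each. Without 1 array they were 0 to 884 and called members 0 to 5; the highest of both came without Col-0 ABA replicate 2. In abh1 the block gave 1 called member and 17 in all, and leaving out 1 array 0 to 30 in all with 0 members. In Col-0 the block gave 0 members and 1 in all, and leaving out 1 array 0 to 139 with 0 members. Median centring moved the median ABA effect of all probe sets to 0.03 from -0.08 and that of the members to 0.15 from 0.04, and quantile normalization gave 0.11 for the members; without 1 array it was -0.01 to 0.08. The 16 named ABA effects kept their sign except AT3G01660 (-0.45 to 0.08 without 1 array; 0.08 without Col-0 ABA replicate 2, 0.06 without Col-0 mock replicate 1) and AT5G25560 (-0.35 to 0.07; 0.05 without abh1 mock replicate 2, 0.07 without Col-0 ABA replicate 1, 0.02 without Col-0 mock replicate 2). Requiring the signal minimum under both treatments, added after seeing the data, left 0 called members without the block. The cause of these changes was not tested.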
